A study of Mus musculus with 4 samples.

Results

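Messenger RNAs of programmed cell death and of the p53 response were examined for binding by NAT10, the enzyme that places N4-acetylcytidine on RNA. The set was 38 named genes, taken by symbol from the deposited list of NAT10 binding sites, with the p53 ubiquitin ligase genes Mdm2 and Mdm4 left out. Of these genes 6 had a listed peak and 32 had none. They held 20 of the 4172 distinct peaks, and the whole list covered 1629 gene identifiers.

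The cells were 32D, a mouse line that grows on interleukin-3; the labels call it bone marrow lymphoblastocytes, of wild-type genotype. All were grown with 10 ng/mL of mouse interleukin-3 and 10% FBS, and crosslinked with UV light at 254 nm (150 mJ). The assay was eCLIP, in which a protein fixed to the RNA it touches is pulled down with an antibody and the attached RNA fragments are sequenced. There were 2 libraries from the NAT10 antibody and 2 input libraries with none, all from 1 cell line, and the labels leave unsaid whether a group's libraries stem from separate cultures. The stated purpose was a search for direct NAT10 sites on mRNA. No level of any mRNA in these cells was measured here, so a gene without a listed peak is not shown to be unbound. Of 14 markers of myeloid progenitors and mast cells 5 had a peak (Prtn3, Csf2rb, Ptprc, Srgn and Gata2). Mpo, Elane, Ctsg, Csf2rb2, Il3ra, Kit, Cd34, Spi1 and Cebpa had none. No peak lay on any of 9 markers of T, B, red blood, liver or connective tissue cells. Of all protein-coding genes 7.33% had a listed peak, so none of 9 is near that share and does not bear on cell identity.

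Cell death by the intrinsic route is set by the BCL2 family at the mitochondrial surface. Its guardians, such as BCL2, hold the pore-forming members BAX and BAK in check, and its BH3-only members relieve that hold. Once cytochrome c leaves the mitochondrion, APAF1 assembles with caspase 9 and starts the protease cascade. In the extrinsic route, death receptors such as FAS recruit FADD and caspase 8. The tumour suppressor p53 feeds both by raising the transcription of several of these genes. In factor-dependent lines such as 32D, interleukin-3 is the signal that keeps this machinery off.

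The deposited list gives 1 row per peak with a fold of immunoprecipitate over input on a log2 scale and a -log10 p, both the authors' values, together with the part of the transcript (3' UTR, 5' UTR or exon) and no value per library. Positions are on GRCm39 and counted from 1. No listed peak had a log2 fold under 3.00 or a -log10 p under 3.07. Both columns moved in steps, and the steps gave back read numbers. The p column followed a one-sided Fisher's exact test of immunoprecipitate against input reads in whichever of 2 library pairs had the weaker p. The fold column followed the mean log2 fold of both pairs. In the pair whose p was not listed, multiples of both read numbers give the same fold. The smallest input number that fitted was taken there. Under that rule 3961 of the 4172 peaks (94.9%) had 1 set of whole read numbers that gave both deposited values, and none had several. All 20 peaks on the members were among them. The fold of each pair does not depend on this rule, but the read numbers of the pair without a listed p are the smallest that fit. The read totals that fitted best, to the nearest 1000, were 2209000 for the immunoprecipitate and 4102000 for the input of the first pair, called pair A here. In pair B they were 2564000 and 4181000. Which pair is replicate 1 in the labels is not known. An input number of 1 may be a counted read or a stand-in for none, which cannot be told apart from the list. Whether duplicate reads had been removed is not known.

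The members with a peak came from 4 of the 5 role groups. The BCL2 family had 1 of 13 (Bcl2), caspases and the apoptosome 1 of 8 (Casp8), inhibitors of apoptosis 1 of 5 (Birc6), and p53 with its partners and targets 3 of 7 (Trp53, Zmat3 and Trp53inp1). None of the 5 genes of the death receptor group had one, and so few genes cannot show a lack of peaks. The share of 6 in 38 was 15.8%, and 7.33% of the 21900 protein-coding genes of the RefSeq table had a listed peak. The members were chosen with results of these data known, so the difference between these shares was not tested. Without receptor and predicted genes the second share was 8.53%, of 18680 genes. Stricter demands left 4 or 5 members. Bcl2, Casp8, Birc6 and Zmat3 had a peak above the median log2 fold (3.95% of all protein-coding genes did), and the same 4 had one above the median -log10 p (3.57%). Peaks in 2 or more separate regions were listed for Bcl2, Casp8, Zmat3 and Trp53inp1 (3.41% of all), and 5 members had a 3' UTR peak (5.2% of all). A peak with 20 or more immunoprecipitate reads in each pair was found for Bcl2, Casp8, Birc6 and Zmat3 (2.6% of all, counting only peaks with read numbers).

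**Figure D1:**
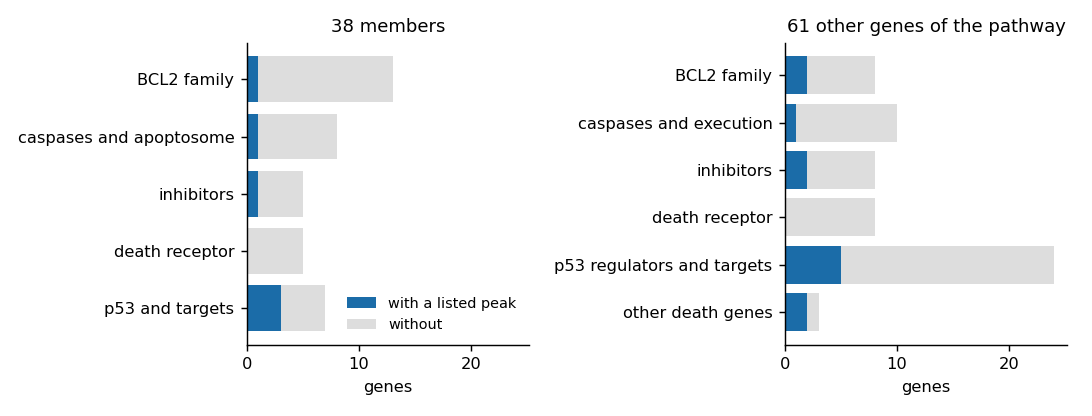
Number of genes (horizontal axis) with and without a listed NAT10 peak, by role, for the 38 members (left) and for 61 other genes of the same pathways (right). Among the members the blue part runs from 0 of 5 genes of the death receptor group to 3 of 7 genes of p53 and its targets. It is 1 gene in each of the other groups.

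Bcl2, the survival gene that names its family, carried the strongest peak among the members. It had 5 peaks, 4 in the 3' UTR and 1 in the 5' UTR, all on the minus strand of chromosome 1. The 4 peaks of the 3' UTR touched each other and formed 1 stretch of 297 nt, from 106470615 to 106470911. Along the RNA from 5' to 3' their log2 folds were 5.90, 6.22, 7.01 and 5.38. The third piece had the highest fold and is called the summit here. The pieces were 84, 49, 86 and 78 nt wide, and neither their folds nor their reads are scaled to width. The summit, 86 nt wide at chr1:106470693-106470778, had 66 immunoprecipitate reads in pair A and 83 in pair B, against an input of 1 in each. Its log2 fold was 6.94 in pair A and 7.08 in pair B, with exact 95% intervals of 4.41 to 12.3 and 4.56 to 12.4 that cover counting error only. All such intervals take the input number as counted. Where an input of 1 stands in for none, the fold is a lower bound and the upper limit does not hold. In the pair whose p is not listed they also take the smallest numbers that fit, and multiples of these would narrow them. The deposited fold of 7.01 is 129-fold on the linear scale. It placed Bcl2 at rank 78 of the 1629 bound gene identifiers, above 95.2% of them.

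The other pieces of that stretch had fewer reads, and both pairs gave them in like numbers. The most 5' piece had 31 and 38 immunoprecipitate reads in pairs A and B, the second 38 and 48, and the most 3' piece 26 and 22. The second piece was also the narrowest of the stretch (49 nt), so its fewer reads do not mean fewer reads per nt than at the summit. Reads can span touching pieces, so these numbers are not independent of one another. The 5' UTR peak of Bcl2, at chr1:106640584-106640686, was far weaker, with a log2 fold of 3.61. It rested on 9 reads against 1 in pair A and 11 against 2 in pair B, and its -log10 p of 3.10 was close to the lowest in the list. Its folds of 4.06 and 3.17 differed by 0.90, the widest gap between the pairs among the 20 peaks.

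No other BCL2 family member of the set had a listed peak. This held for the pore formers Bax and Bak1, for the guardian Bcl2l2, and for the BH3-only genes Bcl2l11 (BIM), Bbc3 (PUMA), Pmaip1 (NOXA), Bid, Bad, Bmf and Bik. It also held for Bnip3 and Bnip3l, whose products act in the removal of mitochondria.

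Casp8 encodes the initiator caspase that death receptors switch on. It had 4 peaks on the plus strand of chromosome 1, 3 in the exon class and 1 in the 3' UTR, in 4 separate regions spread over the gene. The strongest lay in an exon at chr1:58870740-58870822 (83 nt), with a log2 fold of 6.46. It had 50 immunoprecipitate reads in pair A and 51 in pair B, against an input of 1 in each, and log2 folds of 6.54 and 6.38. Casp8 stood at rank 143 of the bound gene identifiers. The 3' UTR peak, at chr1:58886024-58886161, reached 5.75 with 29 and 33 reads, and both pairs gave a log2 fold of 5.75.

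The remaining Casp8 peaks lay at the 5' side of the gene and were weak. The peak at chr1:58838652-58838711 had a log2 fold of 4.18 on 9 and 12 immunoprecipitate reads. The most 5' peak, at chr1:58837613-58837757, had a log2 fold of 3.09, a value that only 0.72% of listed peaks fell below. It had 12 reads against 3 in pair A and 12 against 2 in pair B, while the upstream piece of Birc6 reached a log2 fold of 4.32 on 12 and 11 reads with an input of 1. In pair A alone its log2 fold was 2.89. The gap of 32028 nt between these peaks and the strong exon peak is genomic, so introns can add to it.

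The other caspase and apoptosome genes of the set had no listed peak. These were the initiators Casp2 and Casp9, the executioner Casp6, the scaffold Apaf1, the cytochrome c gene Cycs, the IAP antagonist Diablo and Aifm1, the apoptosis-inducing factor of mitochondria.

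**Figure D2:**
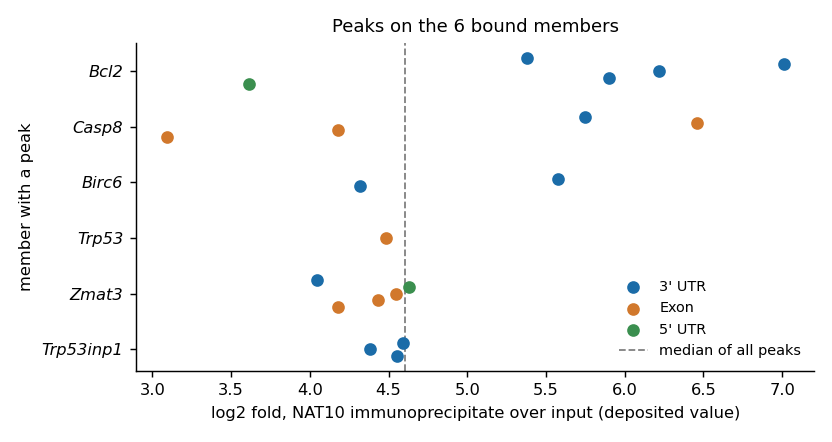
Deposited log2 fold over input (horizontal axis) of each of the 20 peaks on the 6 members with a peak (vertical axis), coloured by the authors' class, with the median of all listed peaks (4.60) as a dashed line. The peaks of Bcl2 and Casp8 span the widest range, while those of Trp53, Zmat3 and Trp53inp1 lie close to the median or below it.

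Birc6 encodes a giant inhibitor of apoptosis with a ubiquitin-conjugating domain. Its 2 peaks touched each other in the 3' UTR and formed 1 stretch of 234 nt on the plus strand of chromosome 17, from 75009709 to 75009942. The upstream piece, 77 nt wide, had a log2 fold of 4.32 on 12 reads in pair A and 11 in pair B. Reads and folds of both pieces are not scaled to width. The downstream piece, 157 nt wide and the widest of all member peaks, reached 5.58 on 26 and 29 reads. Its log2 folds were 5.59 and 5.56 in pairs A and B, a difference of 0.03. Birc6 ranked 336 among bound gene identifiers. The related genes Xiap, Birc2, Birc3 and Birc5 (survivin) had no listed peak, and neither had the death receptor genes Fas and Tnfrsf10b, the adaptors Fadd and Ripk1, or Cflar, the decoy of caspase 8.

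Trp53, the gene of p53 itself, had 1 peak, in an exon on the plus strand at chr11:69479191-69479330 (140 nt). It had 11 immunoprecipitate reads in pair A and 15 in pair B against an input of 1 in each. The deposited log2 fold was 4.48 and the folds of the pairs were 4.35 and 4.61. With an exact 95% interval of 1.57 to 9.78 in pair A, the fold is known only within wide limits. Trp53 ranked 1000 among the bound gene identifiers, with 37.9% of them below it. A single peak set it apart from the other 5 members, which had 2 to 5.

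Zmat3 encodes an RNA-binding zinc finger protein whose gene is a p53 target. It had 5 peaks in 5 separate regions on the minus strand of chromosome 3, as many peaks as Bcl2. From 5' to 3' there were 3 in the exon class, 1 in the 5' UTR and 1 in the 3' UTR. All 3 exon peaks thus lay upstream of the 5' UTR peak, and the transcript models behind these classes are not known. The exon peaks had log2 folds of 4.18, 4.43 and 4.55, on 9 to 12 reads in pair A and 12 to 15 in pair B. The 3' UTR peak, at chr3:32393176-32393252, had 9 and 10 reads, the lowest numbers in the list for each pair.

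The 5' UTR peak of Zmat3, at chr3:32415266-32415401 (136 nt), differed from its neighbours in reads rather than in fold. It had 38 reads in pair A and 48 in pair B, the same immunoprecipitate numbers as the second piece of the Bcl2 stretch. Its input was 3 in each pair, so its log2 fold was 4.63 where that Bcl2 piece reached 6.22. Because its input was counted more than once in each pair, its intervals were the narrowest of the 20 peaks, 2.90 to 6.90 in pair A and 3.07 to 7.03 in pair B. By fold it lay below 3 members' strongest peaks, and by -log10 p (13.8) it exceeded that of Birc6 (10.6).

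Trp53inp1, a p53-induced stress protein that takes part in autophagy and cell death, had 3 peaks, all in the 3' UTR on the plus strand of chromosome 4. They lay 1557 and 1674 nt apart. The log2 folds were 4.55, 4.38 and 4.59 from 5' to 3', on 11 to 13 reads in pair A and 13 to 16 in pair B. These 3 values lay within 0.21 of each other, less than the gap between pairs of the third peak alone (0.23). The order among them is therefore not resolved. The p53 targets Sesn1 and Sesn2, which act in nutrient sensing, the phosphatase gene Ppm1d and the DNA damage mediator Trp53bp1 had no listed peak.

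**Figure D3:**
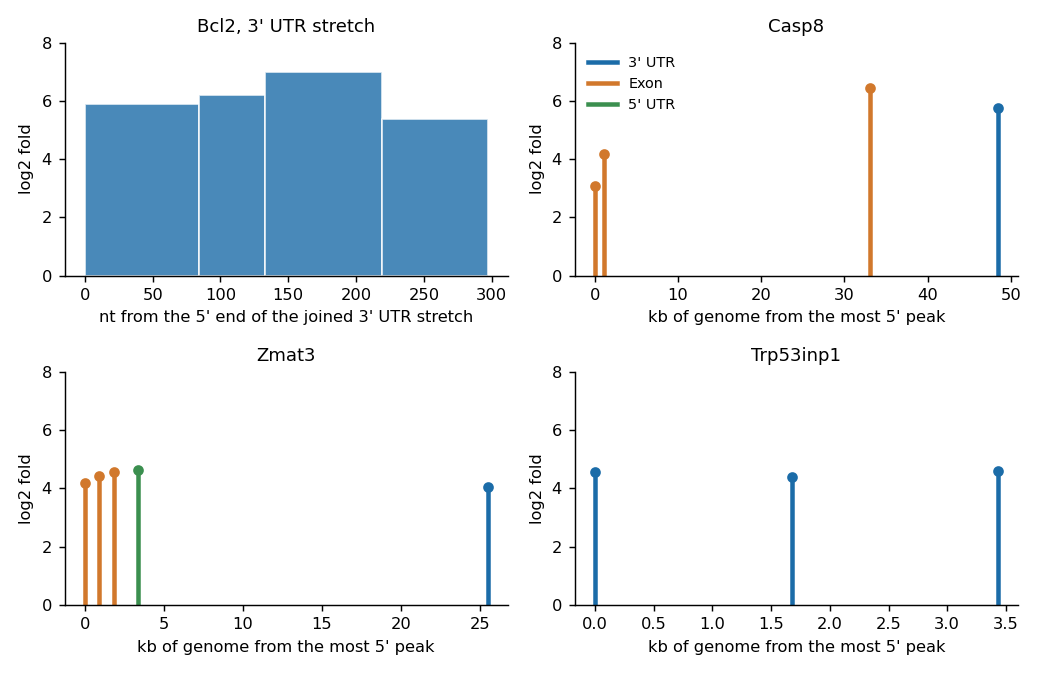
Log2 fold (vertical axes) along the RNA for Bcl2 (the 3' UTR stretch only, in nt, each block 1 peak to scale) and for Casp8, Zmat3 and Trp53inp1 (kb of genome from the most 5' peak, each stem 1 peak), coloured by class. The Bcl2 peaks adjoin in 297 nt with the highest fold, not scaled to width, in the third block. The peaks of the other 3 genes stand apart.

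The strongest peak per member ran from 4.48 (Trp53) to 7.01 (Bcl2) on the log2 fold scale. The 20 differences between pair A and pair B ran from -0.40 to 0.90, with an SD of 0.29 and a median size of 0.15. Over the 3961 peaks with read numbers that SD was 0.39 and the median size 0.19. The order Bcl2, Casp8, Birc6 and then the remaining members was the same in each pair. Bcl2 exceeded Casp8 by 0.40 in pair A and by 0.70 in pair B, about the spread between pairs in the first case. The counting intervals of the 6 strongest peaks all overlapped. The 3 weakest (Zmat3, Trp53inp1 and Trp53, at 4.63, 4.59 and 4.48) were closer together than the pairs were for single peaks and have no resolved order. The fold was higher in pair A for 8 of the peaks and higher in pair B for 12. The listed p is that of the weaker pair and none was under a -log10 p of 3.07, so every listed peak with read numbers reached that value in both pairs, which limits how far apart they can be.

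**Figure D4:**
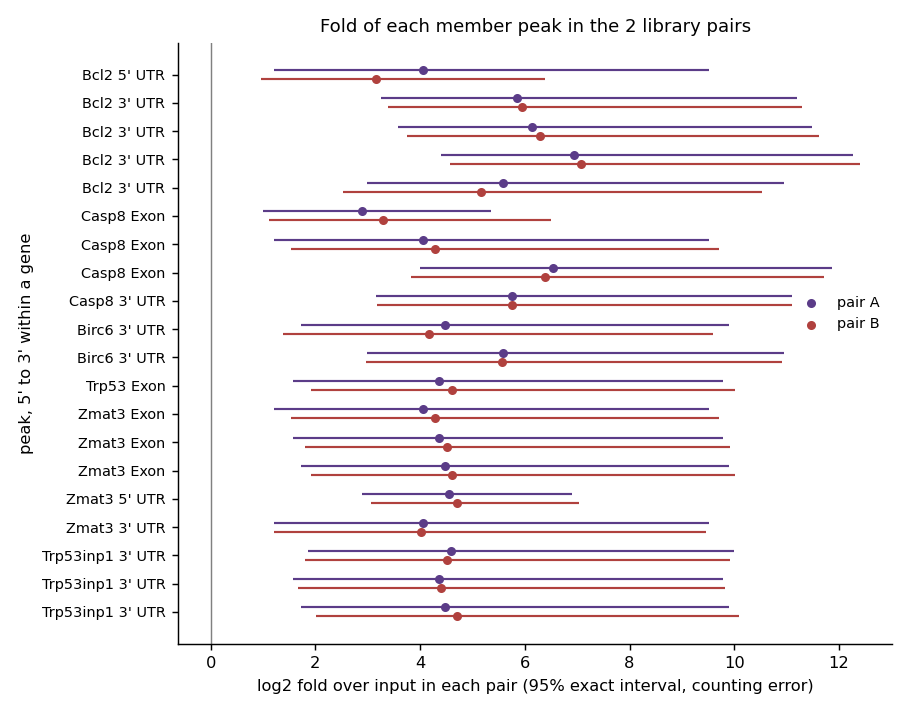
Log2 fold over input of the 20 member peaks in each library pair (points), with exact 95% intervals for counting error (lines) on the horizontal axis and the peaks in 5' to 3' order within each gene on the vertical axis. Points of both pairs lie close together, while the intervals are wide wherever the input number is 1.

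The reads solved for most of these peaks were few, and those of the pair whose p was not listed are the smallest that fit. Of the 20 peaks 11 had 15 or fewer immunoprecipitate reads in each pair, and 8 had 20 or more in each. Among all peaks with read numbers, 35.7% had 15 or fewer in each pair and 35.7% had 20 or more in each. The median over the members' peaks was 12 reads in pair A and 15 in pair B, below the 16 and 18 of all peaks with read numbers. Scaled to the fitted totals, the immunoprecipitates gave 3.90 to 32.4 RPM (reads per 1000000) at these peaks and the inputs 0.24 to 0.73. Both immunoprecipitates lay above both inputs at all 20, which the choice of listed peaks brings about. As solved, the input was 1 in each pair at 17 of the 20 peaks (85%), and at 73.8% of all peaks with read numbers. In the pair whose p was not listed, the true input can be higher than the 1 taken. Read as solved, the fold of those 17 is a read number divided by 1. It then says nothing about differences in the amount of each mRNA in the input.

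**Figure D5:**
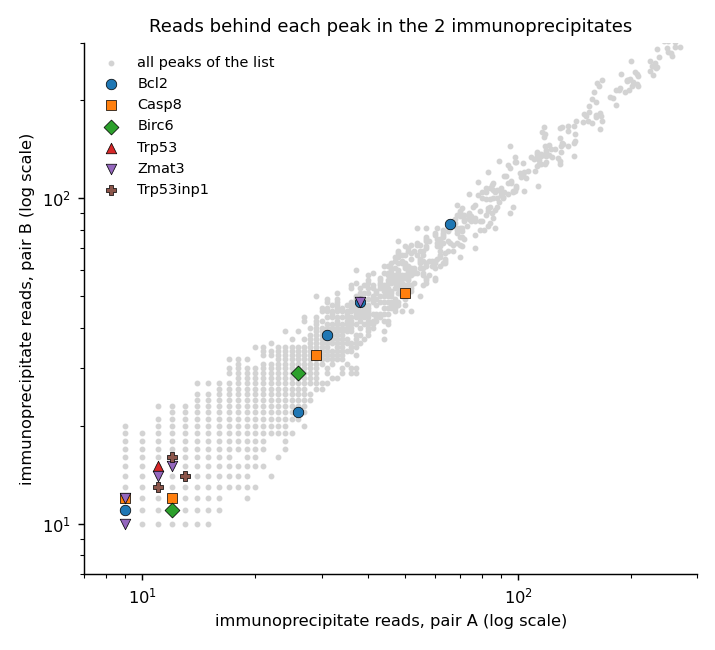
Immunoprecipitate reads in pair A (horizontal, log scale) and pair B (vertical, log scale) for the listed peaks with read numbers (grey, shown up to 300 reads) and for the peaks of the 6 members (symbols). The members run from 9 and 10 reads at the lower edge of the list to 66 and 83 for the Bcl2 summit.

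By class, the members' peaks were spread much as the whole list was. The 3' UTR held 11 of 20 (55%, exact 95% interval 31.5 to 76.9), against 57.6% of all 4172 peaks. Exons held 7 (35%, 15.4 to 59.2) against 36.7%, and 5' UTRs held 2 (10%, 1.23 to 31.7) against 5.68%. Each interval contains the value of the whole list, and 20 peaks on 6 genes cannot show a moderate difference. Of the 6 members, 5 had a peak in the 3' UTR, all except Trp53. The members' peaks were 29 to 157 nt wide with a median of 83.5 nt, against 79 nt over the list. The median of the strongest log2 fold was 5.10 over the 6 members and 4.69 over all bound gene identifiers. Leaving out Bcl2, Casp8 or Birc6 lowered the first to 4.63, under the value of all bound genes, so this difference rests on single genes. A strongest value also tends to rise with the number of peaks, whose median was 3.5 for the 6 members and 2 over all bound genes. Over single peaks the members were not higher. Their median log2 fold was 4.55 against 4.60 over the list, and their median -log10 p 4.53 against 5.68.

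Around this set, 61 other genes of the same pathways were looked up, and 12 of them (19.7%) had a listed peak. Of all protein-coding genes 7.33% had one, or 8.53% without receptor and predicted genes. These genes too were chosen with earlier results of these data known, and the shares take no account of mRNA level. The difference between the shares was therefore not tested. Among the BCL2 guardians, Mcl1 had 7 peaks, all in the 3' UTR and up to 5.38. Bcl2l1, the gene of BCL-XL, had 3 peaks, all in the 5' UTR and up to 5.46. The 3 guardian genes with peaks thus differed in where their strongest peak lay, in the 3' UTR for Bcl2 and Mcl1 and in the 5' UTR for Bcl2l1. Among p53 targets, Cdkn1a, the gene of the cell cycle inhibitor p21, had 8 peaks, 4 in the 5' UTR and 4 in the 3' UTR, up to 5.83. Weaker peaks lay on Ccng1 (4.80), Rrm2b (4.41), the growth arrest gene Gadd45a (4.32) and the antiproliferative gene Btg2 (4.18).

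Pdcd4, a translation inhibitor, had 6 peaks with the strongest in the 5' UTR (6.60, on 51 and 61 reads), and Pdcd6ip had 4, up to 5.26. The highest value belonged to Naip5, an inflammasome receptor of the IAP family, with 7.46 in an exon on 97 and 105 reads. Its near-identical relative Naip6 had 1 peak (4.83), and reads of these copies can be shared, so the gene behind each peak is uncertain. None of the 8 genes of the death receptor group, which included Tnfrsf1a, Tradd and Ripk3, had a listed peak. With 7.33% of all protein-coding genes listed, none of 8 is near that share and shows no lack of peaks. The remaining 49 genes without a peak included the damage kinases Atm and Atr.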

How the data were processed

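The data were 2 NAT10 immunoprecipitate and 2 input eCLIP libraries of 32D cells, summarised by the authors in 1 peak list on GRCm39, per the submitters' processing notes. The deposited -log10 p and log2 fold per peak are the authors' values. The list states neither scale. The log2 and -log10 readings were settled by the whole reads they gave back. Not given in the sources used here were the aligner, peak caller, thresholds and treatment of multiply mapping reads. Peak ends were taken from the deposited list, and each listed start was moved up by 1 so that positions count from 1. That the listed starts need this shift was assumed.

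Members and lists were chosen with earlier results of these data known, and every member and every looked-up gene with a peak was to be named, of which some are not reported here. Read totals were fitted to 67 (pair A) and 63 (pair B) steps of the p column, with a largest misfit of 1.7e-07. Reads were then solved with tolerances of 2e-06 on -log10 p and 1e-06 on log2 fold, trying up to 20 input and 1500 immunoprecipitate reads. The method was tested on simulated data in which most input numbers were 1 and no input was empty. That test therefore cannot show whether an input of 1 in the list is a counted read, a stand-in for none or too low. Of 211 peaks without a solution 34 stood at the p ceiling of 400, and Cdkn1a held 1. Symbols were matched to RefSeq genes of GRCm38.p6, which served for names only (1609 of 1626 matched, and all 38 members). Shares have exact Clopper-Pearson intervals. Python 3.11, scipy 1.17.1 and pandas 2.3.3 were used. No test of immunoprecipitate against input was made, since the listed peaks had been selected by one. Peak sequences were not used here.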

Additional observations from a re-analysis of the deposited data

How the results depend on the processing

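The count of 6 members was 6 in pair A alone and 6 in pair B alone, asking a log2 fold and a -log10 p of 3 in that pair. The listed p is that of the weaker pair and none was under 3.07, so every peak with read numbers met the p demand. Only the fold demand could lower a count from a single pair, so these counts are close to fixed in advance. The count was 4 with peaks above the median fold, above the median -log10 p, in 2 or more separate regions, or with 20 or more reads in each immunoprecipitate, and 5 with the 3' UTR alone. Background shares under these demands were 3.95%, 3.57%, 3.41%, 2.6% and, for the 3' UTR, 5.2%. Without receptor and predicted genes the share of all protein-coding genes moved from 7.33% to 8.53%. The 20 peaks became 16 when touching pieces were joined, 8 with peaks above the median fold, 8 with 20 or more reads in each immunoprecipitate, and 19 or 20 in a single pair. The share in the 3' UTR ran from 46.7% (without Bcl2) to 66.7% (without Zmat3). The median strongest log2 fold ran from 4.63 to 5.58 as each member was left out, and was 5.09 and 5.13 in pairs A and B. The read marks and the single pairs were chosen after seeing the data.

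No paired analysis was possible because no result comes from a test. The folds of each pair are given as a description, since the listed peaks had already been selected on these reads. The depth sets a floor: against an input of 1, a peak needed 9 reads in pair A and 10 in pair B to be listed, since 8 and 9 would give a -log10 p of 2.85 and 2.96. The 3' UTR peak of Zmat3 stood at that floor, so a site with fewer reads on any of the 32 other members could not be listed. Weak binding and a scarce mRNA cannot be told apart in such a site.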
